A study of Gossypium hirsutum with 6 samples.

Results

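Late embryogenesis abundant (LEA) proteins and seed maturation proteins are proteins that plant embryos build up before the seed dries out. Many LEA proteins, though not all, are hydrophilic or structurally flexible. Genes named for seed maturation can encode proteins of other kinds. The genes of both are switched on late in seed development, largely under the hormone abscisic acid. Many LEA genes are switched on again in leaves that lose water. In cotton, Lea genes were first described from the last stage of embryo development and Mat genes from the maturation stage before it. The genes described here are the 4 on the Affymetrix cotton array that carry such a name: Lea5-D, Lea14-A, MatP7 and Mat5-D. They were chosen by name, as every gene with one of these 4 older names that a probe set is paired with alone. Each has 1 probe set. They make up 4 of the 520 genes that the platform's annotation pairs singly with a probe set, and 4 of the 246 among these that have an older name. Older names come from RefSeq's gene table for the assembly Gossypium_hirsutum_v2.1, used for nothing else, since the array's sources state no genome build and positions could not be matched.

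The samples were leaves of Gossypium hirsutum, or upland cotton, of the cultivar Bikaneri Nerma, from open-field plots. In the drought arm, irrigation stopped at peak flowering and a rain-out shelter was drawn over the plots when it rained, and leaves were taken 18 to 19 days later, at a soil moisture of 19.5%, which was 50% of that in the control plots. In the control arm, plants of the same cultivar kept their irrigation. Each arm had 6 plots and gave 3 samples, with 1 array each. The labels call the samples biological replicates, and do not say how plots or plants were assigned to them, so a p-value here rests on the spread among these 6 samples and no more. The question addressed is which leaf transcripts differ in amount between droughted and watered plants.

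The deposited numbers are log2 values that were centred, so that the median over the 6 arrays is 0 for each probe set. They show how an array differs from the others for 1 gene, and hold no absolute level, so neither the abundance of a gene nor its presence in leaf can be read from them, and levels of different genes cannot be compared. The centring also makes the middle pair of a gene's 6 ranked values mirror each other around 0. The median difference between drought and control over the 24029 tested probe sets was 0.12 log2 units, and small differences are to be read against that. In leaf as a whole, fewer cells of a type and less RNA per cell cannot be told apart.

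Among the LEA genes, Lea5-D transcripts were 19.5-fold higher in drought leaves and Lea14-A transcripts 1.99-fold higher, and both differences passed the test across all probe sets. The maturation genes MatP7 and Mat5-D differed by less than 0.25 log2 units, and neither passed; MatP7 was lower, and Mat5-D was higher as deposited but just below 0 with arrays centred on hybridisation spike-ins. As deposited, 2 of the 4 genes thus rose and none fell. Of all tested probe sets, 35.3% were called higher, 20.4% lower and 55.7% either way in limma at an adjusted p of 0.05. A count of 2 in 4 is close to that background. Both depend on the processing: MatP7 was called lower after quantile normalization and with arrays centred on 18 or 27 hybridisation spike-ins. With 27 spike-ins, 16.6% of all tested probe sets were higher and 30.2% lower. The median difference over the 4 genes was 0.60, against 0.12 over all tested probe sets. It falls between Mat5-D (0.21) and Lea14-A (0.99) and describes no single gene. With 18 spike-ins it was 0.33, against -0.15 over all tested probe sets.

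**Figure D1:**
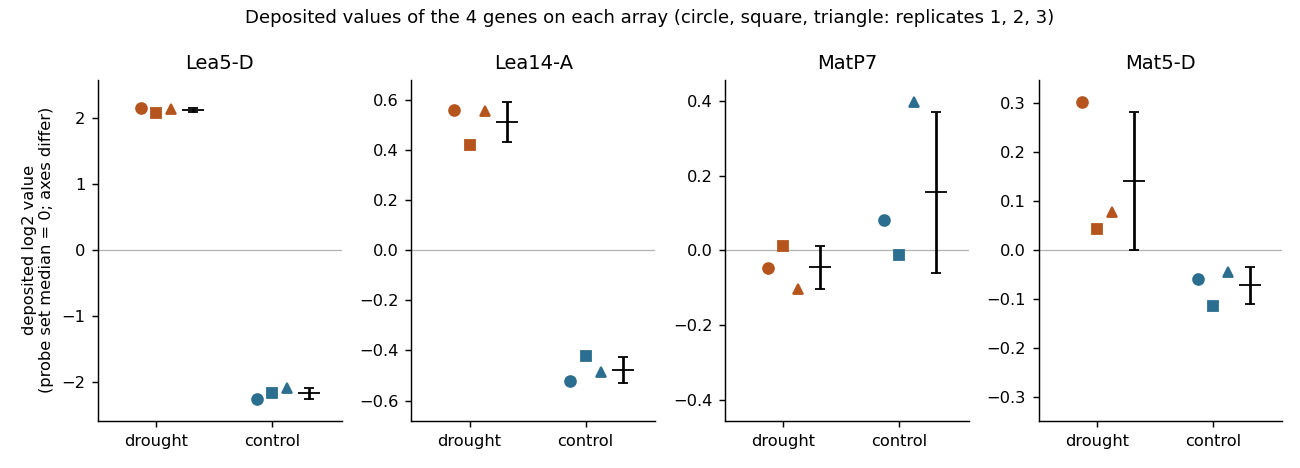
Deposited log2 values (vertical axis, median of each probe set set at 0) of the 4 genes on the 3 drought arrays (left in each panel) and the 3 control arrays (right), with the mean and SD as a black mark; the vertical axes differ between panels. Drought and control arrays are 4.17 log2 units apart at their closest for Lea5-D and 0.84 for Lea14-A, close to each other for Mat5-D, and overlap for MatP7.

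Lea5-D (LOC107916177) encodes an atypical, less hydrophilic LEA protein. In Arabidopsis, a related protein is found in mitochondria. The deposited log2 values of Lea5-D were 2.15, 2.08 and 2.14 in drought leaves of replicates 1, 2 and 3, against -2.25, -2.17 and -2.08 in control leaves. All drought arrays lay far above all control arrays, and the distance between the nearest arrays of the groups, 4.17, exceeded the range within either group, which was 0.07 in drought and 0.16 in control. The mean difference was 4.29 on the log2 scale (SE 0.07, n = 3 arrays per group, limma adjusted p = 1.34e-09), with a 95% interval of 4.12 to 4.46, or 17.4-fold to 21.9-fold. At least 16-fold higher values that passed the test were found for 0.146% of tested probe sets, and 23 of the 24029 had a larger increase than Lea5-D.

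The drought arrays were also close to one another for this gene. The SD of Lea5-D over the drought arrays was 0.04, and 7.67% of tested probe sets had a smaller one. Over the control arrays it was 0.08, and 49.0% had a smaller one. The size of the Lea5-D difference depended on the processing. It was 5.53 after quantile normalization of the deposited values and 4.02 with arrays centred on hybridisation spike-ins, and it passed in both. Quantile normalization gives every array the same set of values, and was applied here to values already centred per probe set. Differences can be stretched or shrunk unequally by that step. The rise of NAC5, described below, went from 5.53 to 7.03, and a fall of NAC7 from -1.83 to -1.53. The 5.53 of Lea5-D is therefore not an upper limit of its response.

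Lea14-A (LOC107922715) encodes another atypical LEA protein, of the group built around a WHy domain. Its values were 0.56, 0.42 and 0.56 in drought leaves of replicates 1, 2 and 3, against -0.52, -0.42 and -0.49 in control leaves. The groups did not overlap and were 0.84 apart at their closest, with ranges of 0.14 within drought and 0.10 within control. Lea14-A rose by 0.99 (SE 0.07, n = 3 arrays per group, limma adjusted p = 6.03e-06), with a 95% interval of 0.82 to 1.16, or 1.77-fold to 2.23-fold. The rise was therefore near 2-fold, and a test against a minimum of 2-fold (limma's treat), which called 3.95% of probe sets higher, did not call it (adjusted p = 1). The estimate lies just below that minimum, so treat could not call it whatever the spread. Rises of at least 2-fold that passed the ordinary test made up 6.63% of tested probe sets, and 1620 probe sets had a larger increase than Lea14-A.

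The identifiers of the Lea5-D and Lea14-A probe sets end in _s_at, which Affymetrix gives to probe sets whose probes match more than one transcript. Upland cotton carries an A and a D subgenome, and the letter at the end of Lea5-D, Lea14-A and Mat5-D names the subgenome of the gene copy. For Lea5-D and Lea14-A the values may hold signal of the partner copy or of another related transcript, and are not shown to belong to the named copy alone. The probe sets of MatP7 and Mat5-D end in _at, which marks probes designed for 1 transcript. None of the 4 genes shares its sequence cluster on the array with another probe set, so there is no second measurement of any of them.

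MatP7 (LOC107888658) is named for seed maturation. Its values were -0.05, 0.01 and -0.10 in drought leaves of replicates 1, 2 and 3, against 0.08, -0.01 and 0.40 in control leaves. The groups overlapped, and control replicate 3 stood above the 5 other arrays. The difference was -0.20 (SE 0.11, n = 3 arrays per group, limma adjusted p = 0.155), with a 95% interval of -0.45 to 0.05. As deposited, the values thus leave room for a fall to 0.731 of the control amount and for a rise of 1.04-fold. That interval does not cover the choice of array scaling. The SD over the control arrays was 0.21, and 92.0% of tested probe sets had a smaller one. Without control replicate 3 the difference was -0.08 (adjusted p = 0.483). With arrays centred on 18 hybridisation spike-ins, it was -0.47 and passed (limma adjusted p = 0.00404). After quantile normalization it was -0.31 and passed narrowly (limma adjusted p = 0.0439), with the limit of that step given above for Lea5-D. Spike-in centring takes 1 median per array off every probe set, so the error of that median is shared by all of them. The SE then came out alike for the 4 genes, from 0.129 to 0.135. Limma does not model such a shared error, so an adjusted p under spike-in centring may be too small.

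Mat5-D (LOC107928642), the other gene named for seed maturation, had values of 0.30, 0.04 and 0.08 in drought leaves of replicates 1, 2 and 3, against -0.06, -0.11 and -0.04 in control leaves. The groups did not overlap, but were 0.09 apart at their closest, which was less than the range within drought, 0.26. Such a separation, with every drought array above every control array, was found for 40.1% of all tested probe sets and for 3 of these 4 genes. The difference was 0.21 (SE 0.09, n = 3 arrays per group, limma adjusted p = 0.0651, unadjusted p = 0.0377), with a 95% interval of 0.02 to 0.41, or 1.01-fold to 1.33-fold, before adjustment. It turned to -0.056 with arrays centred on 18 hybridisation spike-ins and -0.034 with all 27. Drought replicate 1, the highest array for Mat5-D, also had the highest median over all tested probe sets, 0.08, against 0.03 and 0.05 in drought replicates 2 and 3. The part of that offset in the Mat5-D value was not tested. Without drought replicate 1 the Mat5-D difference was 0.13, and without drought replicate 2 it was 0.26 and passed narrowly (limma adjusted p = 0.048).

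**Figure D2:**
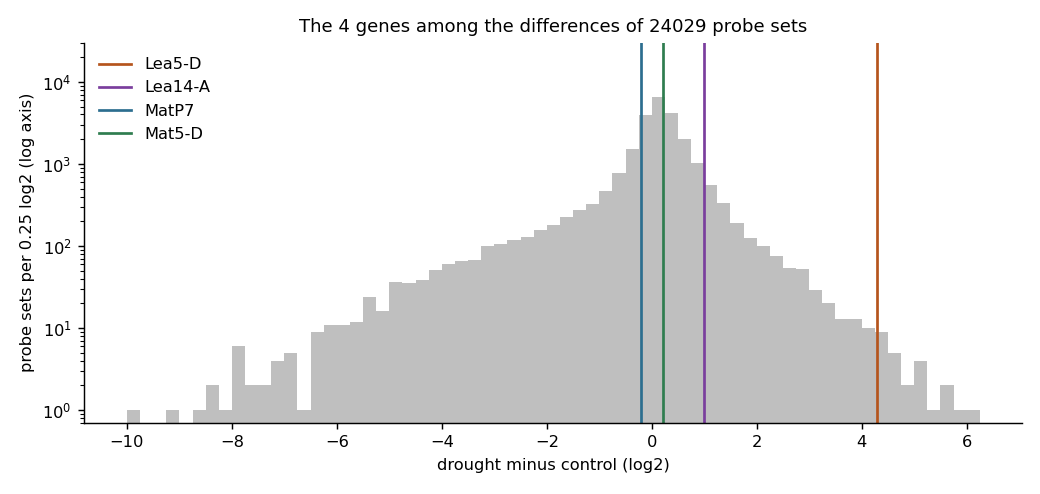
Number of tested probe sets (vertical log axis) in bins of 0.25 log2 units of the difference between drought and control (horizontal axis), with a line at the value of each of the 4 genes. Lea5-D at 4.29 stands in the thin upper tail, Lea14-A at 0.99 on the shoulder, and MatP7 at -0.20 and Mat5-D at 0.21 within the bulk.

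From the most positive to the most negative response the order was Lea5-D, Lea14-A, Mat5-D and MatP7. The responses were compared in pairs by the difference between both genes on the same array, which any offset shared by the probe sets of an array leaves unchanged. For Lea5-D minus Lea14-A the within-array values were 1.59, 1.66 and 1.58 in drought leaves and -1.72, -1.74 and -1.60 in control leaves, so the Lea5-D response was larger by 3.30 (SE 0.05, 95% interval 3.15 to 3.44). The Lea14-A response exceeded that of Mat5-D by 0.78 (SE 0.08, 95% interval 0.56 to 1.00) and that of MatP7 by 1.19 (SE 0.16, 95% interval 0.76 to 1.63). For the neighbours at the low end, MatP7 minus Mat5-D, the difference was -0.41 (SE 0.14, 95% interval -0.81 to -0.02). In all 6 pairs the drought arrays lay wholly to one side of the control arrays. The pairs reuse the same genes, so they are not 6 separate observations. How often other pairs of probe sets separate in this way was not computed. Among single tested probe sets, 40.1% had every drought array above every control array. The two-sided exact permutation test over 3 against 3 arrays cannot go below p = 0.1, and gave p = 0.1 for each of the 6 pairs (0.1 after Benjamini-Hochberg adjustment over the 6). No pair can therefore be called different at 0.05 by that test.

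**Figure D3:**
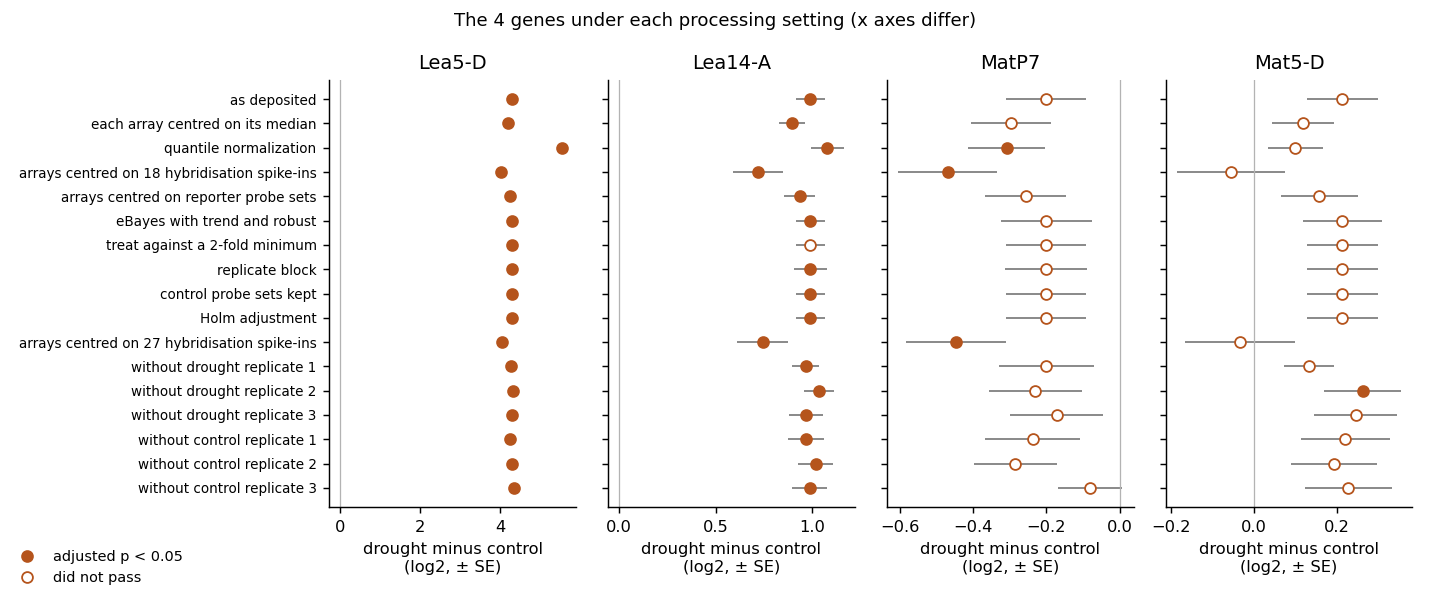
Difference between drought and control (horizontal axes, log2, with SE; scales differ between panels) of the 4 genes as deposited and under 16 other settings (rows); filled points passed an adjusted p of 0.05. Lea5-D stays between 4.02 and 5.53, Lea14-A between 0.72 and 1.08, MatP7 stays below 0, and Mat5-D crosses 0 with spike-in centring. The highest values of Lea5-D and Lea14-A are from quantile normalization.

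Among the genes with an older name, those whose values over the 6 arrays lay nearest to Lea5-D were found by Euclidean distance of the deposited log2 values, as a description without a test. AOX1, which encodes the mitochondrial alternative oxidase and was read on an antisense-design probe set, was nearest by far, at a distance of 0.18. Its values were 2.12, 2.06 and 2.05 in drought leaves and -2.19, -2.05 and -2.17 in control leaves, a difference of 4.22 (SE 0.07, n = 3, limma adjusted p = 1.34e-09). The next were the NAC transcription factor gene NAC5 at 1.63, Pat1 at 1.64, NAC4 at 1.80 and ACO1 (LOC107954048) at 2.13. ACO1 is the gene of an ACC oxidase, of the last step of ethylene synthesis. It was read on a probe set ending in _x_at, and Pat1 and NAC4 on probe sets ending in _s_at. Lea5-D therefore lay between NAC5 (5.53) and Pat1 (2.98) in size, with only AOX1 near it among named genes.

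The neighbourhood of Lea14-A was denser. Its nearest named gene was TC at a distance of 0.08, with values of 0.57, 0.41 and 0.54 in drought leaves and -0.50, -0.41 and -0.56 in control leaves. Then came DBP2 (also CBF15) at 0.15, PAP10, on an antisense-design probe set, at 0.16, DREB1C (also CBF20) at 0.21 and pldd at 0.22. DBP2 and DREB1C are named as factors of the type that recognises dehydration-responsive elements in promoters. The differences of these 5 genes lay between 0.93 and 1.09, beside 0.99 for Lea14-A. With 3 arrays on either side and values centred on 0, any genes of like difference and small spread come out as near, so the distance mainly orders them by size.

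**Figure D4:**
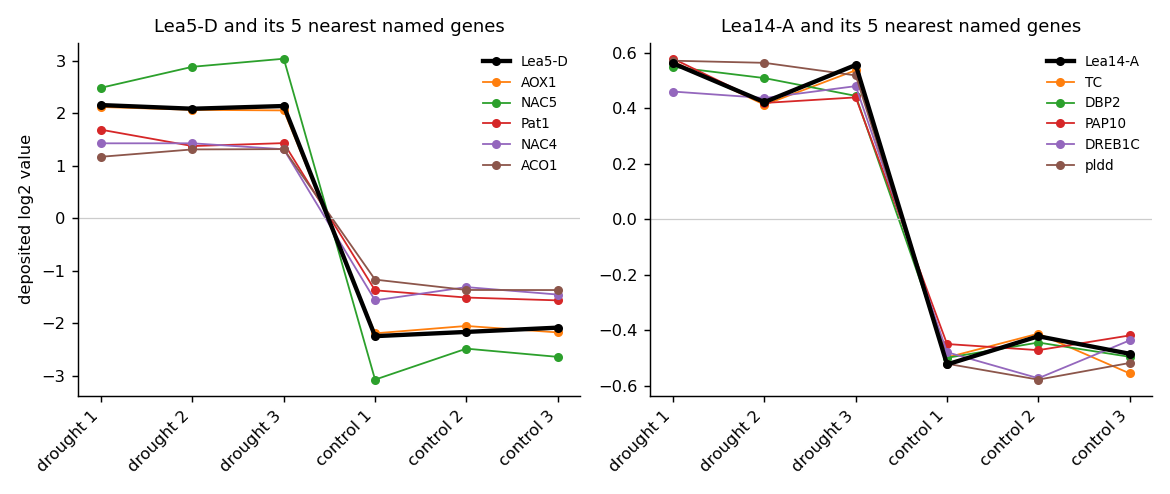
Deposited log2 values (vertical axis) on the 3 drought and 3 control arrays (horizontal axis) of Lea5-D, left, and Lea14-A, right, in black, each with its 5 nearest named genes in colour. AOX1 runs along Lea5-D, while the neighbours of Lea14-A all lie within about the same narrow band.

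Of the seed genes measured beside them, the storage globulin genes LegA, LEGB and vicB_At, which feed the seedling, have 4 probe sets. None of the 4 passed, where 55.7% of all tested probe sets were called either way, with a median difference of 0.08 and a range from -0.18 to 0.16. LegA, a legumin gene, averaged 0.08 in drought leaves and 0.01 in control leaves, a difference of 0.07 (SE 0.10). vicB_At, a vicilin gene, averaged -0.07 in drought leaves and 0.11 in control leaves, a difference of -0.18 (SE 0.10, limma adjusted p = 0.143). vicB_At passed as lower with arrays centred on 27 hybridisation spike-ins (-0.43, adjusted p = 0.00603), after median centring of arrays (-0.28) and with quantile normalization (-0.30), but not with reporter centring (-0.24). The limit of adjusted p under spike-in centring, given above for MatP7, holds here too. So does the limit of quantile normalization on centred values, given for Lea5-D. LEGB and vicB_At were read from antisense-design probe sets, which leaves the transcribed strand unknown. The 2 maturation genes and the 4 storage probe sets thus all lay between -0.20 and 0.21, apart from both LEA genes. No test was made between these groups of genes. The storage list was found by patterns in older names, so the maturation genes are not shown to be a class apart from it.

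The regulators named for dehydration or abscisic acid response, together with NAC, RAV and calcium sensor (CBL) genes, form a list of 18 genes with 27 probe sets. Of the 27, 15 were higher, 1 was lower and 11 did not pass, where 35.3% of all tested probe sets were higher and 20.4% lower; the median difference was 0.38 against 0.12 over all. Counted by gene, 11 of the 18 had a probe set that rose, and 7 had none that passed. The matching share over all genes was not computed, and a gene with several probe sets has more chances to be counted. The gene NAC7 had 1 probe set that rose (0.78) and 1 that fell (-1.83). The largest differences were those of NAC5 (5.53, SE 0.18), NAC4 (2.83, SE 0.09, and 2.78, SE 0.08, on 2 probe sets) and NAC2 (1.83, SE 0.07). RAV1, of an AP2 and B3 domain factor, rose on all 3 of its probe sets, by 1.49, 0.70 and 0.44. The 0.70 was read on an antisense-design probe set, as was the 2.78 of NAC4. The 0.44 was read on a probe set ending in _x_at, so the 3 are not like measurements. The list also took in Rab7 (0.64), a small GTPase of vesicle traffic that matched by its name alone. With arrays centred on 27 hybridisation spike-ins, 12 were higher and 3 lower, where 16.6% of all tested probe sets were higher and 30.2% lower. These calls carry the same limit of adjusted p under spike-in centring. Calls as higher were lost for the weakest RAV1 probe set (0.20), for a CBF17 probe set (0.13, against 0.38 as deposited) and for Di19-2, which was -0.056, against 0.19 as deposited. CBL2 (-0.32) and a probe set of NACL2 (-0.39) were newly called lower beside NAC7.

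**Figure D5:**
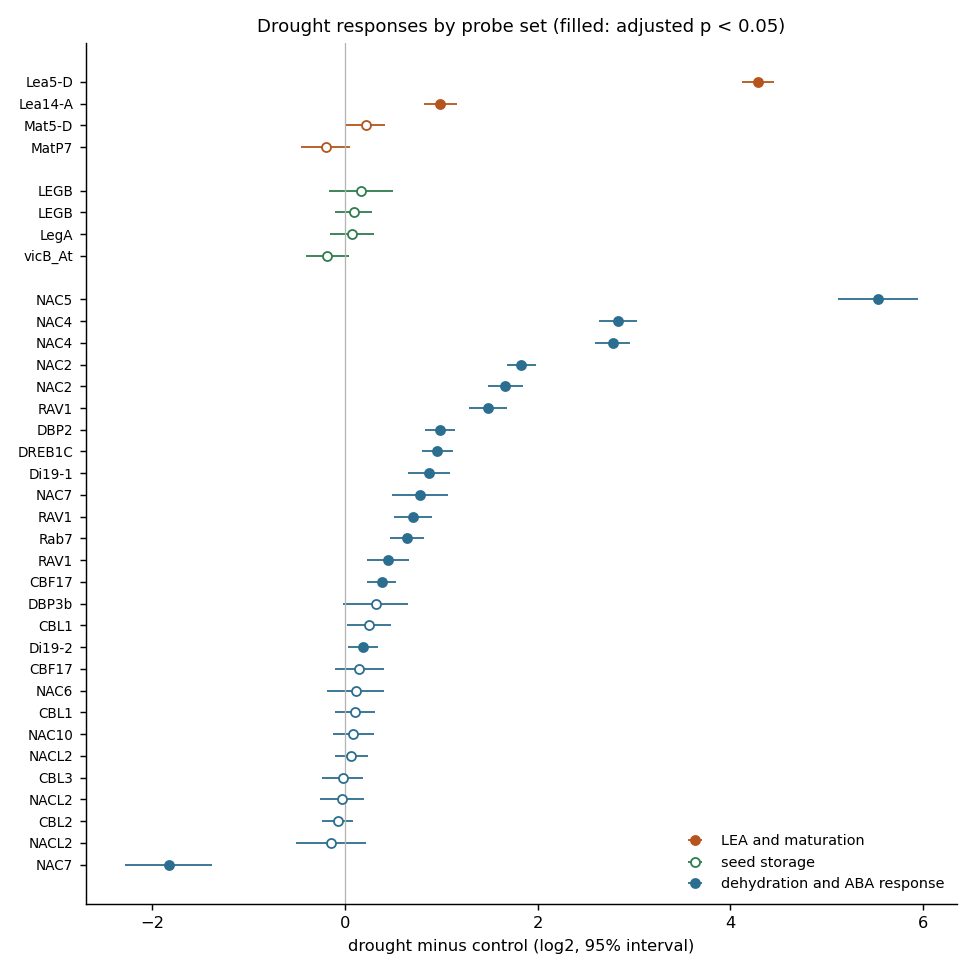
Difference between drought and control (horizontal axis, log2, 95% interval) for each probe set (rows) of the LEA and maturation genes, the seed storage genes and the dehydration and abscisic acid response genes; filled points passed an adjusted p of 0.05. Lea5-D is second to NAC5 among the probe sets shown, and the storage genes and both maturation genes lie around 0.

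Markers of other tissues also differed between the groups. The counts below stand against 35.3% of all tested probe sets called higher and 20.4% lower. Of 4 fibre probe sets 3 were lower in drought leaves and 1 was higher, and their summed value ran from -6.14 to -5.10 over drought arrays and from 5.40 to 5.50 over control arrays. Both flower probe sets were lower, with sums from -3.31 to -2.54 in drought and from 2.54 to 3.33 in control. The summed value of the 4 seed storage probe sets ran from -0.06 to 0.26 in drought and from -0.39 to 0.26 in control, and overlapped. Both probe sets of the leaf list, of RCA1 and PEPC1, were higher by 0.60, with sums from 0.56 to 0.70 in drought and from -0.64 to -0.53 in control. PEPC1 was taken for the planned name PEPC, and is not shown here to be particular to leaf. Since the values hold no level, no marker can be said to be present or at 0, and the part of tissue make-up in the Lea5-D and Lea14-A differences was not tested. Control probe sets moved too: the array median of 27 hybridisation spike-ins was higher in drought by 0.247, and that of 52 reporter probe sets, of sequences foreign to cotton, by 0.0557. The Lea5-D and Lea14-A differences exceeded both. The Mat5-D difference was smaller than the spike-in difference, and that of MatP7 had the opposite sign.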

How the data were processed

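Biotin-labelled cRNA from leaf RNA was hybridised to Affymetrix cotton arrays, 1 per sample. The authors deposited log2 values. Per the submitters' processing notes they used RMA, with no version named. Log2 is taken from RMA and from the range of the values, and a higher value is read as more signal, which the table does not state. Each deposited log2 value is centred: the largest absolute probe set median over the 6 arrays was 5e-07. The sources used here do not say how.

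Of 24132 probe sets, 103 Affymetrix controls, those with names that start with AFFX, were left out. The 52 reporter probe sets stayed among those tested. Drought was compared with control over the other 24029 probe sets with lmFit and eBayes of limma 3.58.1 (R 4.3.3), without a block, two-sided, with Benjamini-Hochberg adjustment over all of them and a threshold of 0.05. Every SE, interval and adjusted p of a gene is from that fit unless stated; intervals of pair differences use the spread of within-array differences. The fit was tested on simulated data. Array number limits the precision, and no filter on dim probe sets was possible on centred values.

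The members, lists and tests were chosen with earlier results of these data known. Named genes are all members, the 5 nearest named genes of Lea5-D and of Lea14-A, and up to 6 of the largest differences of lists found by patterns in older names; Rab7, Di19-2, RAV1, CBF17, CBL2, NACL2 and the rising NAC7 probe set were named after their values were seen. Array scaling, the variance model, treat, Holm adjustment, control probe sets, the replicate number and each array were varied.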

Additional observations from a re-analysis of the deposited data

How the results depend on the processing

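Each of the 4 genes was recomputed under 16 other settings. Lea5-D kept its direction and passed in all 16, with values from 4.02 (18 hybridisation spike-ins) to 5.53 (quantile normalization). Quantile normalization acted on values already centred per probe set, so 5.53 is not an upper limit of the response. The next highest value was 4.33, without control replicate 3. Lea14-A passed in 15 of 16, with values from 0.72 to 1.08, and did not pass treat against a 2-fold minimum, where its value is 0.99 (adjusted p = 1). That value is below the 2-fold minimum, so treat could not call it, nor MatP7 or Mat5-D, whose differences are smaller in size. MatP7 stayed below 0 in all 16 and passed in 3, with -0.31 after quantile normalization, -0.47 with 18 spike-ins and -0.45 with all 27, the last chosen after seeing the data. Mat5-D passed in 1 of 16 and turned to -0.056 and -0.034 with 18 and 27 spike-ins; the cause was not tested. With each array left out in turn, values ran from 4.25 to 4.33 for Lea5-D, 0.97 to 1.04 for Lea14-A, -0.29 to -0.08 for MatP7 and 0.13 to 0.26 for Mat5-D.

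Over all probe sets, 13380 were called as deposited (8485 higher, 4895 lower). Without any single array there were 11878 to 13092, with 7409 to 8275 higher and 4465 to 5089 lower. Treat called 2597 (949 higher, 1648 lower), and Holm adjustment 3459 (1570 higher, 1889 lower), both stricter by construction. With 18 spike-ins 3796 were higher and 7759 lower, and with 27, 3989 were higher and 7255 lower. Since the error of the spike-in median is shared by all probe sets of an array, adjusted p may be too small in both of these settings. The share of calls that were higher was 63.4% as deposited, 57.7% with reporter centring, 53.1% with median centring, 50.9% after quantile normalization, and 32.9% and 35.5% with 18 and 27 spike-ins. The median of all differences was -0.15 and -0.13 with these, and 0.02 with median centring. Same-numbered drought and control arrays had correlations of their deviations of 0.0326, 0.0453 and 0.0741, so the numbers are not shown to pair samples. The fit with a replicate block called 13244 probe sets and changed no call among the 4 genes.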
